A study of Mus musculus with 10 samples.

Results

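The knockouts of genes from the same chromatin complex were set directly against each other: the 3 Ep400 ko clones against the 3 Kat5 ko clones, that is 6 of the 10 libraries, over all 13587 genes that passed a filter on low counts. Both sets of clones were derived from mouse O9-1 cells, a tetraploid cell line of cranial neural crest origin that was grown on Matrigel in preconditioned medium. Cas9 and a guide against *Kat5* or *Ep400* were introduced by transfection, sorted cells were seeded individually, and each library is the polyadenylated RNA of 1 clone. All *Kat5* alleles of the Kat5 ko clones and all *Ep400* alleles of clone Ep400/1 carried insertions or deletions, while part of the *Ep400* alleles of clones Ep400/2 and Ep400/3 carried in-frame deletions in the ATP binding site. The 4 libraries of unedited wildtype O9-1 cells entered only to show which of the knockouts had moved. Clones of a group share a guide and a parent line, so that the p-values measure the spread between clones and cannot tell a trait of the knockout from a trait that the clones acquired during selection and growth.

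Kat5 (Tip60) acetylates histones H2A and H4 and is the catalytic acetyltransferase of the Tip60/Ep400 complex. Ep400 is the Swi/Snf-type ATPase of the same complex and exchanges histone H2A for its variant H2A.Z in nucleosomes near transcriptional start sites. Cranial neural crest cells give rise to mesenchyme, bone, cartilage and connective tissue of the face, and rely on transcription factors such as Msx1, Tfap2a, Snai2 and Twist1 and on retinoic acid, BMP, FGF, PDGF and Wnt signals.

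Values below are normalized counts, i.e., the authors' raw counts scaled by TMM factors over all 10 libraries, and log2-fold changes are Ep400 ko over Kat5 ko with their standard error (SE), from a fit of the 6 knockout libraries. The SE was calculated back from the test, as the absolute log2-fold change divided by the square root of its F statistic. Adjusted p-values come from the quasi-likelihood test of edgeR and were adjusted over all genes tested by the method of Benjamini and Hochberg. Genes counted as DEGs if the adjusted p did not exceed 0.05, the fold change was at least 1 on the log2 scale in either direction and the mean was above 100 in at least 1 knockout.

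*Kat5* (ENSMUSG00000024926, GRCm38 chr19:5603014-5610237, minus strand) had 863, 618 and 872 normalized counts in clones Kat5/1 to Kat5/3 and 2428, 2980 and 2596 in clones Ep400/1 to Ep400/3. The wildtype libraries lay between 1837 and 2163, so that all Kat5 ko clones were below and all Ep400 ko clones above the wildtype range. The log2-fold change was 1.74 (SE 0.22, adjusted p = 0.0203). *Ep400* (ENSMUSG00000029505, chr5:110664373-110770717) had 5514, 8654 and 6297 normalized counts in the Kat5 ko clones and 2059, 2311 and 2247 in the Ep400 ko clones, against 5899 to 6216 in wildtype cells. Its log2-fold change was −1.65 (SE 0.22, adjusted p = 0.0206). Each targeted gene was thus low in its own clones and not in the other knockout. Of the 19 tested genes for subunits of the complex, these were the 2 DEGs, and the median log2-fold change of the 19 was −0.24 (−0.08 without Ep400/3) beside 0.01 over all genes tested. The 14 tested genes for H2A.Z, its exchange factors and related remodelers held 0 DEGs by edgeR's test. *Ino80e*, an INO80 subunit, passed the p-value threshold with a log2-fold change of −0.94 (adjusted p = 0.0471), and *Anp32e*, a chaperone that removes H2A.Z, had −1.06 (adjusted p = 0.0555).

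The libraries held 32709984 to 48301792 counts in the Kat5 ko clones, 32950540 to 41231337 in the Ep400 ko clones and 30968945 to 44776201 in wildtype cells. Reads from mitochondrial genes took 0.893% to 1.24% of the counts in the Kat5 ko clones and 1.58% to 3.24% in the Ep400 ko clones, with 1.20% to 2.43% in wildtype cells. Each pair of clones from the same knockout differed beyond sampling noise, with a chi-square statistic per degree of freedom of 91.4 to 248 for Kat5 ko and 154 to 261 for Ep400 ko pairs, so that none were merged. Of the 11 markers of neural crest and mesenchyme, 10 passed the filter in these cells. *Vim* reached 203106 to 218157 normalized counts in the Kat5 ko clones and 254320 to 385811 in the Ep400 ko clones, while *Thy1* was near 0, with at most 7.06.

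The first principal component of the 500 most variable genes took 67.0% of the variance and separated the knockouts (plot of the 6 clones). The Kat5 ko clones lay at −20.3, −66.1 and −40.5 and the Ep400 ko clones at 33.7, 36.1 and 57.1. On log2 CPM values of these genes, Ep400 ko clones were 49.0 to 49.6 apart and Kat5 ko clones 58.3 to 81.3. Distances across the knockouts ran from 75.2, for Kat5/1 and Ep400/1, to 128, for Kat5/2 and Ep400/3. By this measure, the Kat5 ko clones were further apart from each other than the Ep400 ko clones. On average, clones of different knockouts were 38.8 further apart than clones of the same knockout, and no other split of 3 against 3 clones gave a larger difference (one-sided exact permutation test, p = 0.1, which is the smallest p that this design allows).

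**Figure D1:**
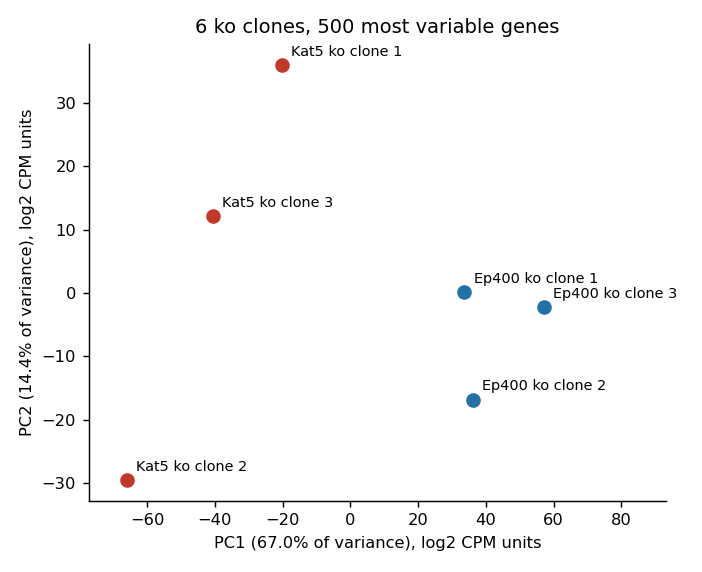
Positions of the 6 knockout clones on the first and second principal component (x and y axis, log2 CPM units) of the 500 most variable genes. The Kat5 ko clones (red) lie between −66.1 and −20.3 and the Ep400 ko clones (blue) between 33.7 and 57.1 on the first component.

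Between the knockouts, 748 DEGs were obtained, which are 5.51% of the genes tested. Of these, 425 were higher (3.13%) and 323 lower (2.38%) in Ep400 ko than in Kat5 ko clones, so that 56.8% were higher. With library size as the scaling factor in place of TMM, 488 DEGs were higher and 196 lower (71.3% higher), and the median log2-fold change of all genes moved from 0.01 to 0.14. In all 748 DEGs the ranges of the groups did not overlap, but the same was true of 38.5% of all genes tested (20.5% higher and 18.0% lower in Ep400 ko). The number of DEGs depended on which clones entered. It was 4 without clone Ep400/3, 5 without Kat5/3, 32 without Ep400/2, 81 without Kat5/2, 330 without Ep400/1 and 1750 without Kat5/1. None of the 748 log2-fold changes changed its sign in any of these 6 fits, and all 748 kept an unadjusted p of at most 0.05 in each. The 748 were chosen in these same libraries for a small p and had ranges without overlap. Both outcomes were therefore largely fixed in advance and are no independent support. As DEGs, 2 genes were called in all 6 fits, *Vldlr* and *Galnt15*, and 2 further genes in 5 of them, *Cyr61* and *Mfsd6*. *Galnt15* and *Mfsd6* were named after their values had been seen.

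**Figure D2:**
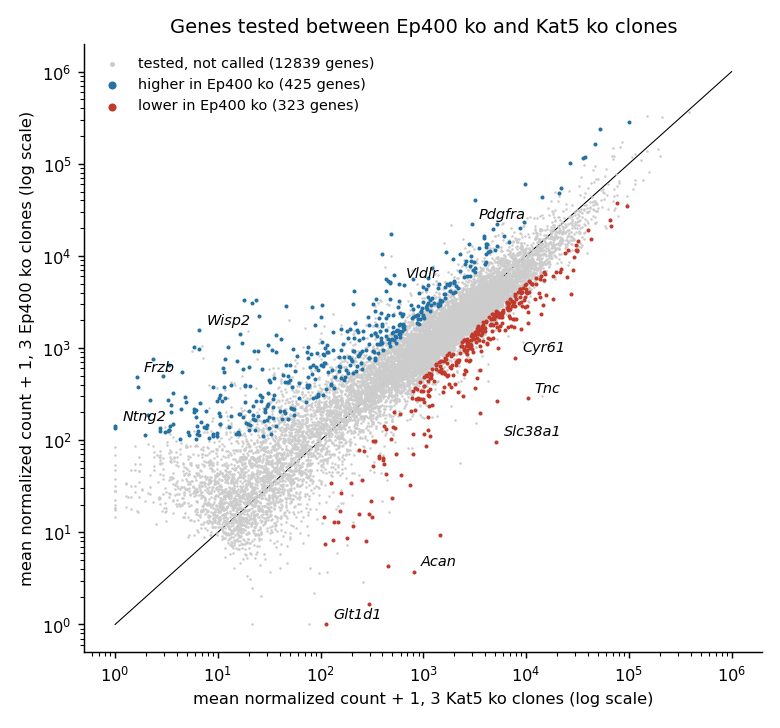
Mean normalized count plus 1 of the 3 Kat5 ko clones (x axis) and the 3 Ep400 ko clones (y axis) for each of the 13587 genes tested, both axes on a log scale. Blue points are the 425 DEGs higher and red points the 323 DEGs lower in Ep400 ko clones, and the line marks equal means.

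To see which knockout had moved, each set of clones was placed against the range of the 4 wildtype libraries, which both placements share. Of the 425 DEGs that were higher in Ep400 ko, 194 had all Ep400 ko clones above the wildtype range while the Kat5 ko clones did not leave it together, 77 had all Kat5 ko clones below it while the Ep400 ko clones did not leave it together, and in 106 the knockouts lay on opposite sides. For the 323 DEGs that were lower in Ep400 ko, the respective numbers were 205, 38 and 55. Neither set of clones left the wildtype range together in 46 and 23 of the DEGs. Over all genes tested, the Ep400 ko clones lay above the wildtype range in 16.5% and below it in 13.9%, and the Kat5 ko clones in 9.68% and 9.81%. Fitted against wildtype on its own, Ep400 ko gave 577 DEGs with higher (4.17%) and 319 with lower expression (2.31%), and Kat5 ko 12 (0.0893%) and 40 (0.298%). By the distances above, the Kat5 ko clones were further apart from each other, whereas the chi-square statistics of the pairs overlapped between the knockouts. The number of DEGs and of genes in which all clones leave the wildtype range depends on the spread between clones and on the size of a change. The part of this spread in the counts was not tested. These counts therefore do not measure how strongly each knockout changed expression. With DESeq2, the study reported more DEGs for Kat5 ko and fewer for Ep400 ko than were obtained here. The number of DEGs on opposite sides of wildtype was 161 in total, and it rose to 246 without wildtype library 2 and to 241 without wildtype library 3.

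The genes with the smallest p-value in either direction both lay on opposite sides of wildtype. *Vldlr* (ENSMUSG00000024924, chr19:27216484-27254231, plus strand) encodes the very-low-density lipoprotein receptor. It had 500, 672 and 552 normalized counts in the Kat5 ko clones, 1558 to 3059 in wildtype cells and 4882, 5632 and 4439 in the Ep400 ko clones. The log2-fold change was 3.10 (SE 0.21, adjusted p = 0.00659), and 2.64 after the median shift of each chromosome described further on had been taken out (adjusted p = 0.0133). *Cyr61* (ENSMUSG00000028195, chr3:145646976-145649981, minus strand) encodes the matricellular protein CCN1 and is a well-known target of YAP and TEAD. It showed the opposite order, with 5851, 7497 and 9905 normalized counts in the Kat5 ko clones, 1125 to 2655 in wildtype cells and 769, 793 and 782 in the Ep400 ko clones. The log2-fold change of *Cyr61* was −3.33 (SE 0.24, adjusted p = 0.00659).

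The promoters of *Vldlr* and *Cyr61* and of the most significant DEGs among ribosome biogenesis and cholesterol genes, *Polr1b* and *Insig1*, are given from RefSeq on GRCm38.p6, from 250 bases before to 50 bases after the start site and in the direction of transcription, because the results below turn on these genes and groups. Capitals mark matches on either strand to the letters CACGTG (E-box), GGAATG (TEAD), TGANTCA (AP-1), TATAAA (called a TATA box), TGATGNAA (CHOP-ATF4), TCACNCCAC (sterol regulatory element) and CCAAT.
Vldlr, chr19:27216234-27216533, plus strand, first of 2 listed promoters: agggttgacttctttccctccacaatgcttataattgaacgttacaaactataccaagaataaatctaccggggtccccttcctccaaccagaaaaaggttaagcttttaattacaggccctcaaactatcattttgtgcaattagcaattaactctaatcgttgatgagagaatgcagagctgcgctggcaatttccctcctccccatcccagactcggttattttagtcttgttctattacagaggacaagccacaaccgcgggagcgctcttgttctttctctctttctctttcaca
Cyr61 (Ccn1 in RefSeq), chr3:145649936-145650235, minus strand: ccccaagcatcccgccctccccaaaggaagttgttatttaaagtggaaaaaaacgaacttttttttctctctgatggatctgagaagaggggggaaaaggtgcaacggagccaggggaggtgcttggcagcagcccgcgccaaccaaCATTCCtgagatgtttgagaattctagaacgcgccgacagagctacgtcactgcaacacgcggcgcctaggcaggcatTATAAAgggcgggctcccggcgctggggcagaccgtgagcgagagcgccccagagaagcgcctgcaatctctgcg
Polr1b, chr2:129100746-129101045, plus strand: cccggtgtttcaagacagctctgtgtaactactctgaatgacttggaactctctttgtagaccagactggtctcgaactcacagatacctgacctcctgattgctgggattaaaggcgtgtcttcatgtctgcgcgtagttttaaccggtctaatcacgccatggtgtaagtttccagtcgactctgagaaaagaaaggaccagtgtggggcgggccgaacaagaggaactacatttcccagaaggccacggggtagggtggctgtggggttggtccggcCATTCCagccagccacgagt
Insig1, chr5:28071162-28071461, plus strand: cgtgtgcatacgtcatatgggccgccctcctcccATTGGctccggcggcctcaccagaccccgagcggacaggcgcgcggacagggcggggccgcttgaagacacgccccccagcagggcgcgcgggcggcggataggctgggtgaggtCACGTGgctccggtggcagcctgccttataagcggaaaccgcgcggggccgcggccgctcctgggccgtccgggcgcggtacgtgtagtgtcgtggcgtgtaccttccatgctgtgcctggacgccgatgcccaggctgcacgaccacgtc
The *Vldlr* window held none of the motifs, that of *Cyr61* a TEAD motif and a TATA box, that of *Polr1b* a TEAD motif, and that of *Insig1* an E-box and a CCAAT motif. Among all 27025 genes with a listed promoter, 14.6% had the TEAD letters, 14.2% the TATA box, 7.24% the E-box and 37.9% CCAAT, so that such matches are frequent. Of the 52 ribosome biogenesis genes with a listed promoter, 10 had an E-box (19.2%) and 3 a TEAD motif (5.77%). The shares over all listed promoters include genes that did not pass the filter here, and are thus no matched background. For the genes tested no share is given, as only 74.5% of them had a listed promoter. A match is a run of letters and no measurement of binding.

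The DEGs with the largest increase in Ep400 ko over Kat5 ko clones were near absent from the latter. *Ntng2*, which encodes the netrin G2 axon guidance molecule, was at 0 in all Kat5 ko clones and had 101, 90.5 and 229 normalized counts in the Ep400 ko clones, at least 45.0-fold higher if each Kat5 ko library is set to 3 counts. *Hs3st6*, a heparan sulfate sulfotransferase gene, was likewise at 0 in the Kat5 ko clones and had 59.1, 43.5 and 304 in the Ep400 ko clones, at least 43.6-fold higher. Both genes were detected at low levels in wildtype cells, with at most 1.96 for *Ntng2* and 25.2 for *Hs3st6*. *Frzb*, which encodes a secreted Wnt antagonist, had 1.04, 0 and 0.83 normalized counts in the Kat5 ko clones and 290, 221 and 925 in the Ep400 ko clones. From so few reads, the ratio of 734 had a counting interval of 203 to 6063. *Cped1* had 3.11, 0 and 0.83 against 609, 436 and 1231 (log2-fold change 8.99, SE 0.87, adjusted p = 0.0133).

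*Wisp2*, encoding the matricellular protein CCN5, had 7.26, 8.68 and 0.83 normalized counts in the Kat5 ko clones and 631, 2101 and 1929 in the Ep400 ko clones, with 10.9 to 122 in wildtype cells (log2-fold change 8.14, SE 0.83, adjusted p = 0.0133). It was low in all Kat5 ko clones and high in all Ep400 ko clones. *Rab3il1*, encoding an exchange factor for a Rab GTPase, also lay on opposite sides of wildtype, with 22.8, 2.48 and 20.7 in the Kat5 ko clones, 100.1 to 445 in wildtype cells and 712, 497 and 3028 in the Ep400 ko clones. In contrast, *Ryr3*, *Aldh3a1*, *Pamr1*, *Scara5* and *Rai2* were low in wildtype cells as well, and the Ep400 ko clones alone lay above the wildtype range. The ryanodine receptor gene *Ryr3* had 4.15, 0 and 1.66 against 651, 428 and 425 normalized counts (adjusted p = 0.0133). The aldehyde dehydrogenase gene *Aldh3a1* had 1.04, 11.2 and 2.49 against 1201, 321 and 1561 (adjusted p = 0.0203). *Scara5*, which encodes a scavenger receptor that takes up ferritin, had 28.0, 2.48 and 20.7 against 2881, 1178 and 5846 (adjusted p = 0.0203). The log2-fold changes of these 3 genes were 7.87, 7.75 and 7.52. *Pamr1* had at most 1.24 in the Kat5 ko and 118 to 826 in the Ep400 ko clones (ratio 588, counting interval 162 to 4859), and *Rai2* 11.4, 1.24 and 4.15 against 170, 1617 and 1174. The remaining *Msx3* and *Tmem35* overlapped with wildtype in the Ep400 ko clones. *Msx3*, a homeobox gene, had 56.5 to 102 in wildtype cells, at most 2.48 in the Kat5 ko clones and 62.7, 532 and 218 in the Ep400 ko clones (ratio 246, counting interval 83.8 to 1195).

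The DEGs with the largest decrease were expressed in wildtype cells and low in Ep400 ko clones, all of which lay below the wildtype range, whereas the Kat5 ko clones did not lie together on one side of it in any of the 12. *Acan*, which encodes the cartilage proteoglycan aggrecan, had 209 to 920 normalized counts in wildtype cells, 127, 181 and 2106 in the Kat5 ko clones and 7.06, 1.18 and 0 in the Ep400 ko clones (log2-fold change −8.08, SE 1.62, adjusted p = 0.0361). The Kat5 ko clones varied widely, with Kat5/3 as the high clone. *Tnc*, encoding the matrix protein tenascin C, had 22504, 665 and 7800 in the Kat5 ko clones and 256, 238 and 361 in the Ep400 ko clones (−5.21, SE 1.12, adjusted p = 0.0415). *Bhlhe22*, a basic helix-loop-helix factor gene, had 17.6, 611 and 247 against 0.883, 1.18 and 0, a ratio of 414 with a counting interval of 114 to 3425. *Glt1d1*, a putative glycosyltransferase gene, was at 0 in all Ep400 ko clones and had 21.8, 138 and 177 in the Kat5 ko clones, at least 37.5-fold lower in Ep400 ko if each of its libraries is set to 3 counts. *Ak4*, which encodes a mitochondrial adenylate kinase, had 400.3, 769 and 1072 against 48.5, 22.3 and 24.4 (log2-fold change −4.56, SE 0.54, adjusted p = 0.0197). The stress kinase gene *Mapk12* had 137, 231 and 469 against 11.5, 7.06 and 2.81 (−5.28, SE 0.75, adjusted p = 0.0233). The tight junction genes *Cldn6* and *Cldn9* were 58.1, 1179 and 131 against 0.883, 8.23 and 0.937, and 175, 683 and 618 against 15.0 to 32.7, respectively. *Glipr1* and *Erc2* had log2-fold changes of −7.45 (adjusted p = 0.0263) and −4.55 (adjusted p = 0.042).

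**Figure D3:**
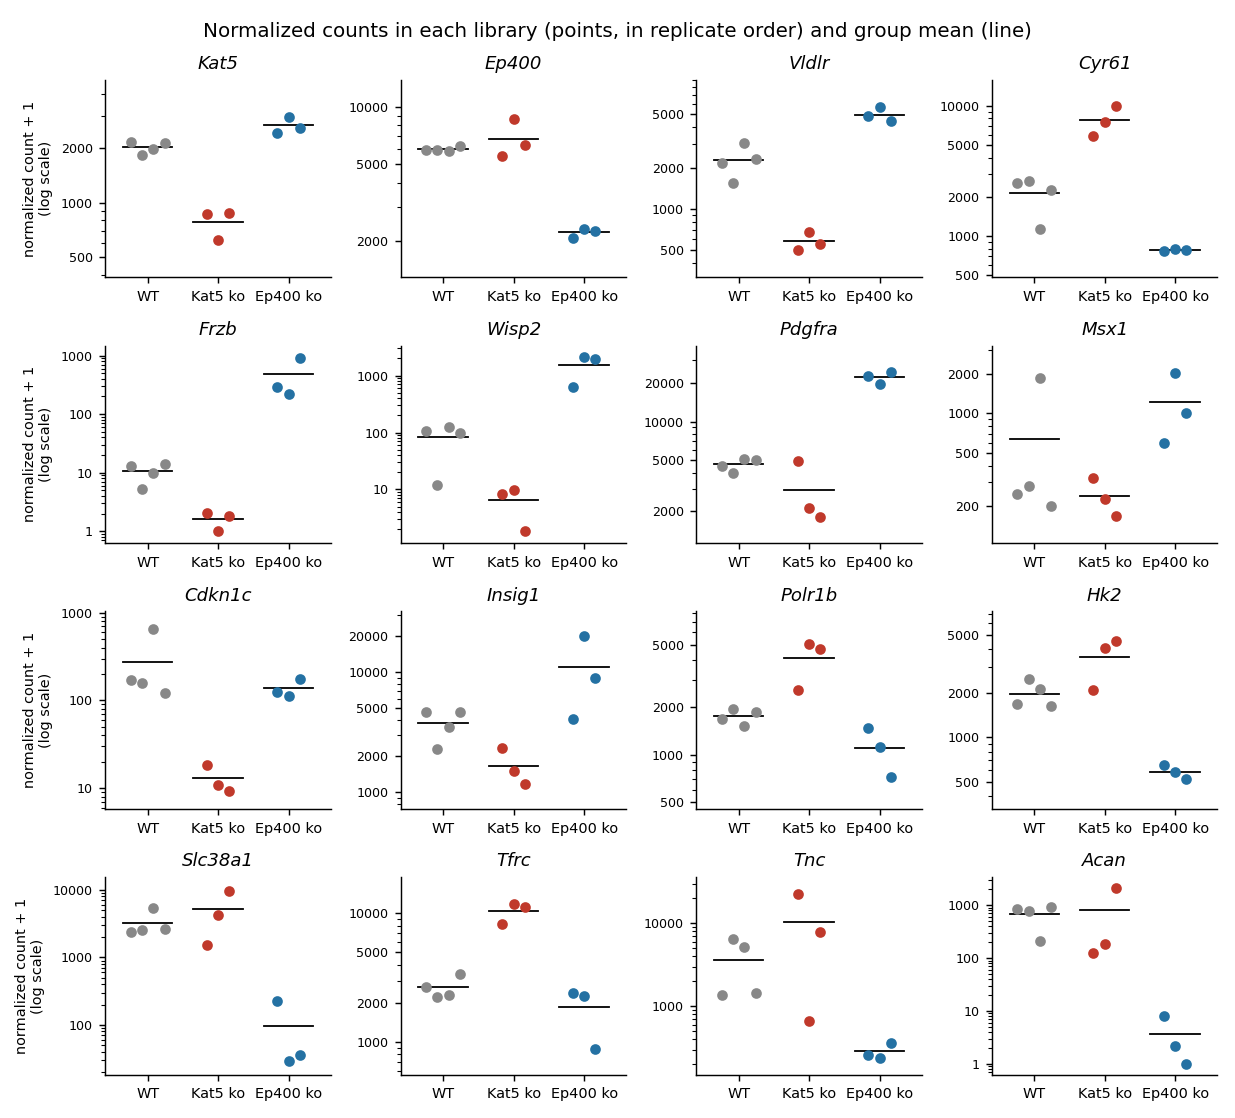
Normalized counts plus 1 (y axis, log scale) of 16 genes in the 4 wildtype, 3 Kat5 ko and 3 Ep400 ko libraries. Points are libraries in replicate order and lines are group means. *Vldlr* and *Cyr61* lie on opposite sides of wildtype in the knockouts. All Ep400 ko clones lie above the wildtype range for *Pdgfra* and below it for *Acan* and *Tnc*, and all Kat5 ko clones lie below it for *Cdkn1c* and above it for *Tfrc*.

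The DEG counts of the gene lists below are to be read beside all genes tested, of which 3.13% were higher and 2.38% lower DEGs. A count of 1 or 2 DEGs therefore says little about a list. Of 20 tested neural crest specifier genes, 5 were DEGs, all higher in Ep400 ko clones, and 14 had a log2-fold change above 0, with a median of 0.78. The clones did not overlap in 9 of the 20 in the higher direction, beside 20.5% of all genes, and in 2 in the lower direction, beside 18.0%. *Nr2f1*, an orphan nuclear receptor gene, had 5740, 3058 and 3480 normalized counts in the Kat5 ko clones and 13312, 12708 and 13917 in the Ep400 ko clones, with 3378 to 5619 in wildtype cells (log2-fold change 1.68, SE 0.28, adjusted p = 0.0294). *Tfap2a*, which encodes the AP-2α factor, had 1354, 1241 and 902 against 2170, 3371 and 4303 (1.47, SE 0.30, adjusted p = 0.0373). *Snai2*, an inducer of epithelial to mesenchymal transition, had 953, 820 and 838 against 1569, 1640 and 2367 (1.07, SE 0.23, adjusted p = 0.0413). For these 3 genes, all Ep400 ko clones exceeded wildtype and the Kat5 ko clones did not lie together on one side of it. The homeobox gene *Msx1* had 323, 222 and 165 against 590, 2034 and 1001 (2.33, SE 0.50, adjusted p = 0.0415), but wildtype library 3 alone had 1843, and neither set of clones lay together outside the wildtype range. Among 21 craniofacial homeobox genes, *Msx1* and *Prrx2* were DEGs, both higher, and 16 of the 21 had a log2-fold change above 0. *Prrx2*, a mesenchymal homeobox gene, had 1018, 1955 and 1296 against 5086, 4724 and 4976 (1.77, SE 0.26, adjusted p = 0.0248). Of the 10 tested markers of neural crest and mesenchyme, 3 were DEGs, *Pdgfra*, *Tfap2a* and *Snai2*. A log2-fold change above 0 was seen in 7 of the 10, and the median of the 10 was 0.60. *Itgb1*, which was no DEG, went the other way without overlap, with 38008, 31589 and 28652 against 20149, 25583 and 18880. *Klf9*, a Krüppel-like factor gene, was the only DEG among 14 KLF genes (2.50, SE 0.34, adjusted p = 0.0211). Of 10 genes of the fetal Lin28-let-7 axis, 2 were DEGs, both lower. However, 4 of the 10 had a log2-fold change above 0, and the median was −0.35 (−0.11 without Ep400/3). *Igf2bp1*, which encodes an RNA-binding protein, had 3352, 6463 and 6653 against 1634, 1656 and 1445 (−1.82, SE 0.28, adjusted p = 0.0263), and *Lin28b* 57.0, 141 and 120 against 7.94, 14.1 and 18.7 (−2.97, SE 0.58, adjusted p = 0.0347).

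Of the 18 genes of the PDGF, IGF and VEGF systems, 3 were DEGs, all higher, although 9 of the 18 had a log2-fold change above 0 and the median was 0.03 (−0.14 without Ep400/3). *Pdgfra*, encoding the PDGF receptor of neural crest mesenchyme, had 4896, 2118 and 1808 normalized counts in the Kat5 ko clones and 22432, 19561 and 24402 in the Ep400 ko clones, with 3955 to 5128 in wildtype cells (log2-fold change 2.88, SE 0.42, adjusted p = 0.0242). *Pdgfrb*, encoding the second PDGF receptor, had 3832, 2456 and 2378 against 8929, 10489 and 10762 (1.78, SE 0.25, adjusted p = 0.0233). *Igfbp6* had a log2-fold change of 1.19 (SE 0.24, adjusted p = 0.039). In each of these genes the Ep400 ko clones lay above wildtype and the Kat5 ko clones did not lie together on one side of it.

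Of 13 genes of retinoid metabolism and signaling, 4 were DEGs, all higher in Ep400 ko, and all 13 had a log2-fold change above 0, with a median of 1.56. *Crabp1*, encoding the cellular retinoic acid binding protein, had 78028, 41845 and 35797 against 149271, 321835 and 246139 (2.18, SE 0.43, adjusted p = 0.0355). Here, all Kat5 ko clones lay below the wildtype range of 86356 to 152627. *Cyp26b1*, which encodes an enzyme that degrades retinoic acid, had 4222, 3646 and 6498 against 17134, 17728 and 24057 (2.02, SE 0.29, adjusted p = 0.0233), and *Rdh10*, which encodes an enzyme of its synthesis, had 299, 406 and 430 against 614, 1208 and 1523 (1.54, SE 0.37, adjusted p = 0.0489). The receptor gene *Rarg* had 7420, 9505 and 9452 against 22890, 22866 and 14196 (1.17, SE 0.26, adjusted p = 0.043) and lay on opposite sides of wildtype. Genes for synthesis, degradation, binding and reception of retinoic acid were thus all among the higher DEGs.

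In the BMP system, 4 of 18 genes were DEGs, all higher, while the median log2-fold change was 0.21 (0.11 without Ep400/1). They comprised the ligand gene *Bmp4* (27.0, 36.0 and 39.0 against 562, 95.3 and 274) and the genes of 3 inhibitors. These were *Grem1* with 39175, 38870 and 29638 against 120913, 139815 and 88460 (1.68, SE 0.27, adjusted p = 0.0288), *Chrd* with 239, 138 and 73.8 against 829, 514 and 1060 (2.39, SE 0.50, adjusted p = 0.0401), and the inhibitory Smad gene *Smad6* with 13.5, 24.8 and 50.6 against 389, 198 and 391 (3.43, SE 0.60, adjusted p = 0.0313). The FGF system had 3 higher DEGs of 20 and a median of 0.51 (0.30 without Ep400/2). They were the ligand gene *Fgf10* (1.67, adjusted p = 0.0404), the receptor gene *Fgfr1* (1.41, adjusted p = 0.0436) and *Etv1*, an ETS factor gene downstream of FGF (adjusted p = 0.0206). For *Etv1*, the Kat5 ko clones with 1143, 830 and 1000 normalized counts lay below the wildtype range of 1443 to 3815. Of 32 Wnt genes, *Frzb* and *Tcf7* were DEGs, both higher, and the median was 0.51. *Tcf7* had 116, 325 and 264 against 707, 1057 and 758, with 645 to 970 in wildtype cells, and all Kat5 ko clones lay below that range. Among 50 guidance genes, *Plxna2*, encoding a semaphorin co-receptor (488, 537 and 399.8 against 2774, 4509 and 2912, adjusted p = 0.0133), and *Ephb6* (2.46, adjusted p = 0.0334) were higher DEGs. Of 17 Notch genes, *Hes6* was a higher DEG (1.26, adjusted p = 0.0347). TGF-β genes had 1 lower DEG of 27, the activin subunit gene *Inhba* (−1.58, adjusted p = 0.05). The 1 or 2 DEGs in each of the Wnt, guidance, Notch and TGF-β lists were near the share among all genes tested (3.13% higher, 2.38% lower). Of the 26 cytokine genes, *Lif* was lower with 3558, 2422 and 3553 against 636, 246 and 233 (−3.11, SE 0.45, adjusted p = 0.0242), and *Kitl* higher (1.58, adjusted p = 0.0482).

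The CCN family and the targets of YAP split into both directions, with 3 higher and 4 lower DEGs of 22 and a median of −0.12 (−0.23 without Kat5/1). Lower in Ep400 ko were *Cyr61*, *Ajuba*, encoding a LIM protein of the Hippo pathway (3803, 7537 and 6294 against 2118, 1575 and 1878, adjusted p = 0.0293), and *Tead2*, encoding a DNA-binding partner of YAP (4827, 3516 and 3624 against 1496, 1658 and 1827, adjusted p = 0.0277). *Ctgf* (CCN2), named here after its values had been seen, was high in the Kat5 ko clones, which had 792, 1761 and 3969 against 284 to 327 in wildtype cells and 308, 308 and 373 in the Ep400 ko clones (−2.74, SE 0.54, adjusted p = 0.0355). *Wisp2* and *Nov* (CCN3), the latter also named after its values had been seen, were higher. *Nov* had 347, 40.9 and 243 against 5089, 3036 and 4332, with 190.3 to 381 in wildtype cells (4.27, SE 0.71, adjusted p = 0.0294). Within this family of matricellular proteins, CCN1 and CCN2 were thus high in Kat5 ko clones and CCN3 and CCN5 high in Ep400 ko clones.

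Matrix and adhesion genes moved in both directions as well. Of 35 proteoglycans and other matrix proteins, 5 were higher and 2, *Acan* and *Tnc*, lower DEGs. *Sparcl1* had 47.7, 2.48 and 14.1 against 410, 936 and 1437 (5.39, SE 0.98, adjusted p = 0.0314). The matrix Gla protein gene *Mgp* had 118, 393 and 831 against 4219, 6597 and 5081 (3.55, SE 0.64, adjusted p = 0.0314), and the basement membrane gene *Nid2* 49.8, 81.9 and 174 against 580, 880 and 2016 (3.48, SE 0.64, adjusted p = 0.0317). In wildtype library 3, *Mgp* and *Nid2* reached 12908 and 3376, far above the other wildtype libraries. Of 27 collagen genes, *Col5a2* was a lower DEG (10363, 30279 and 34662 against 6115, 3752 and 8049, adjusted p = 0.0472). Among 34 genes for matrix proteases and their inhibitors, 3 were higher DEGs. They were *Timp2*, a metalloproteinase inhibitor gene, with 37016, 16683 and 27224 against 96752, 93980 and 111995 (1.88, SE 0.33, adjusted p = 0.0313), *Mmp28* (2.96, adjusted p = 0.0206) and the aggrecanase gene *Adamts5* (3.26, adjusted p = 0.0437). Integrin genes were among the DEGs in both directions. *Itga3*, whose product binds laminins, was lower with 5768, 12097 and 8866 against 2391, 1100 and 1327 (−2.49, SE 0.39, adjusted p = 0.0266), and *Itga1* (2.93, adjusted p = 0.0314), *Itgb3* (3.40, adjusted p = 0.0341) and *Itgb5* (1.54, adjusted p = 0.0334) were higher. These were the 4 DEGs of 26 tested integrin and laminin genes. Of 18 cadherin genes, *Pcdh17* and *Cdh13* were higher and the giant cadherin gene *Fat1* lower DEGs. Of 16 genes of bone and cartilage differentiation, *Spp1* and *Sox5* were higher and *Acan* lower DEGs. *Spp1*, which encodes osteopontin, had 93484, 88431 and 116307 against 231634, 310663 and 299592, and lay on opposite sides of the wildtype range of 125387 to 195874 (1.48, SE 0.27, adjusted p = 0.0314).

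Of 60 ribosome biogenesis factors, 7 were DEGs, all lower in Ep400 ko than in Kat5 ko clones, and 1 of the 60 had a log2-fold change above 0. The median was −1.20, and in 45 of the 60 the clones did not overlap, beside 18.0% of all genes in this direction. *Polr1b*, encoding the second largest subunit of RNA polymerase I, had 2582, 5095 and 4708 normalized counts in the Kat5 ko clones and 1474, 1125 and 723 in the Ep400 ko clones, on opposite sides of the wildtype range of 1534 to 1948 (−1.91, SE 0.35, adjusted p = 0.0317). The ribosome assembly genes *Utp14a* (2527, 4069 and 3709 against 1437, 1705 and 1109, adjusted p = 0.0347) and *Cirh1a* (4008, 10592 and 7722 against 2404, 2478 and 1386, adjusted p = 0.0401) showed the same pattern, and *Rrp1b* had a log2-fold change of −1.89 (adjusted p = 0.0401). The level differed between clones of a group. Relative to the wildtype mean, the median of the 60 genes was 0.14, 1.08 and 0.92 on the log2 scale in Kat5/1, Kat5/2 and Kat5/3 and 0.00, −0.34 and −1.06 in Ep400/1, Ep400/2 and Ep400/3. Both Kat5/1 and Ep400/1 were therefore close to wildtype. Fitted against wildtype, the median log2-fold change was 0.73 in Kat5 ko and −0.46 in Ep400 ko.

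Other parts of the protein synthesis machinery had the same sign with smaller medians. Of 49 translation factors, 3 had a log2-fold change above 0, the median was −0.58 and *Eif3j1* was a DEG (−1.28, SE 0.26, adjusted p = 0.036). Of 37 aminoacyl-tRNA synthetases, *Lars*, *Kars* and *Farsa* were lower DEGs with log2-fold changes of −1.17, −1.20 and −1.25, and the median was −0.65. The 82 cytosolic ribosomal proteins had 0 DEGs by edgeR's test and a median of −0.38, and in 38 of them the Ep400 ko clones lay below the Kat5 ko clones without overlap, beside 18.0% of all genes. Without Ep400/3, the median was −0.22. Medians were −0.27 over 76 mitochondrial ribosomal proteins (−0.11 without Ep400/3), −0.61 over 54 splicing genes (0 DEGs, smallest adjusted p = 0.0523 for *Prpf3* and *Snrpg*) and −0.52 over 37 proteasome genes, of which *Psma7* was a DEG (−1.06, adjusted p = 0.0475). *Mycn*, encoding a transcription factor of growth genes, had 146, 29.8 and 49.8 against 16.8, 2.35 and 5.62 normalized counts and did not pass (−3.17, adjusted p = 0.0658), and the 12 tested genes of the MYC, MAX and MXD network included 0 DEGs.

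**Figure D4:**
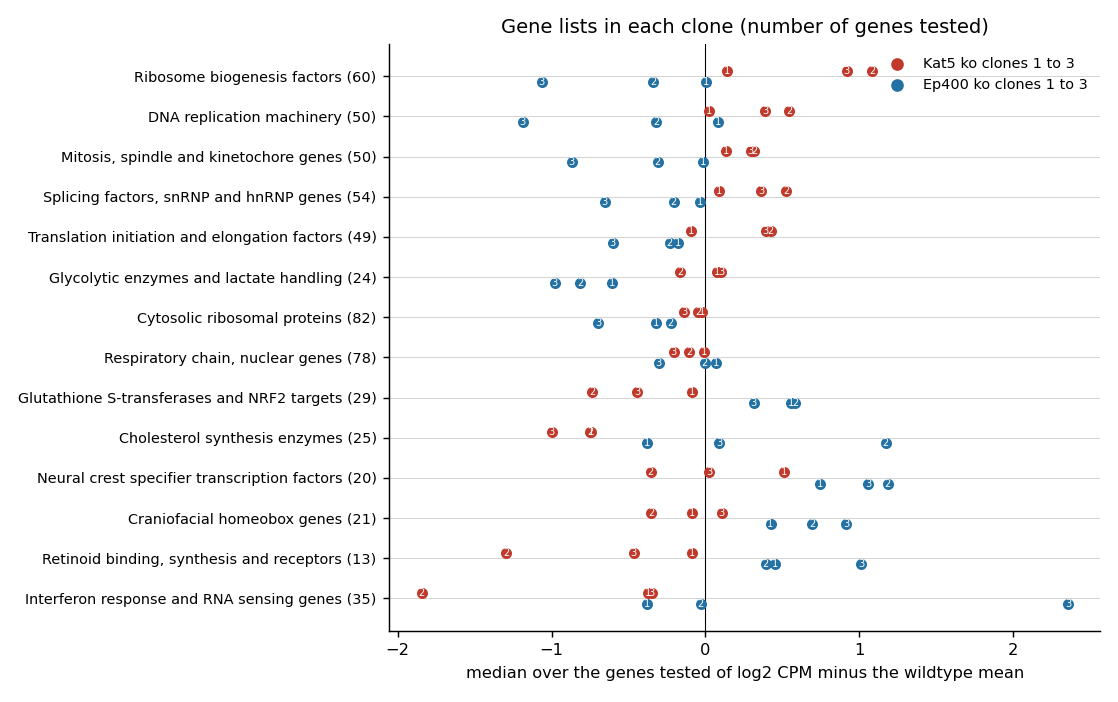
Median over the tested genes of a list of log2 CPM minus the wildtype mean (x axis), for 14 gene lists (rows, with the number of genes tested). Numbered red points are the Kat5 ko clones 1 to 3 and blue points the Ep400 ko clones 1 to 3. Ribosome biogenesis factors run from −1.06 in Ep400/3 to 1.08 in Kat5/2, and the high value of interferon genes rests on Ep400/3 with 2.36.

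None of 50 mitosis genes had a log2-fold change above 0, and 3 were lower DEGs, with a median of −0.64 (−0.39 without Ep400/3). *Kif23*, encoding a kinesin of cytokinesis, had 6741, 5540 and 5660 against 3328, 2223 and 2269 and lay on opposite sides of the wildtype range of 3621 to 4203 (−1.22, SE 0.23, adjusted p = 0.0321). *Espl1*, encoding separase, had a log2-fold change of −1.71 (adjusted p = 0.0446), and *Kif18a* of −1.08 (adjusted p = 0.05). The 50 genes of DNA replication had 0 DEGs by edgeR's test and a median of −0.70 (−0.45 without Ep400/3), and the smallest adjusted p was 0.072 for *Orc1* (−1.73). Median values against wildtype differed from clone to clone. For DNA replication genes they were 0.02, 0.545 and 0.39 in Kat5/1, Kat5/2 and Kat5/3. In Ep400/1, Ep400/2 and Ep400/3 they were 0.09, −0.32 and −1.19, so that Ep400/1 lay above Kat5/1. Of 20 genes for G1 cyclins, their kinases and inhibitors, 2 were DEGs. *Cdkn1c*, encoding the CDK inhibitor p57, had 17.6, 9.92 and 8.29 normalized counts in the Kat5 ko clones and 123, 113 and 175 in the Ep400 ko clones, with 119.7 to 645 in wildtype cells (3.48, SE 0.52, adjusted p = 0.0257). *Ccne1*, encoding cyclin E1, had 2037, 2457 and 4051 against 1046, 851 and 321, with 719 to 1585 in wildtype cells (−1.96, SE 0.46, adjusted p = 0.0485). In both genes all Kat5 ko clones lay on one side of the wildtype range. Of the Ep400 ko clones, Ep400/2 was just below it for *Cdkn1c* and Ep400/3 below it for *Ccne1*. Among 24 genes of p53 and its targets, the kinase gene *Plk2* was a lower DEG with 8343, 16415 and 16845 against 3509, 1941 and 1592 (−2.58, SE 0.40, adjusted p = 0.0266).

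Of 24 glycolytic genes, 6 were lower DEGs and 1, *Eno2*, a higher DEG, and the median log2-fold change was −0.64. Against wildtype, the median was −0.01 in Kat5 ko and −0.86 in Ep400 ko. *Hk2*, encoding hexokinase 2, had 2091, 4055 and 4520 against 651, 577 and 519, with 1649 to 2487 in wildtype cells (−2.63, SE 0.31, adjusted p = 0.0197). *Pfkl*, encoding a phosphofructokinase, had 7977, 5108 and 6903 against 2985, 2006 and 2706 (−1.40, SE 0.25, adjusted p = 0.0314). The enolase genes *Eno1* and *Eno3* had 56507, 70253 and 75634 against 28059, 21106 and 13431 (−1.71, SE 0.32, adjusted p = 0.0317), and 1944, 3774 and 4324 against 741, 259 and 409 (−2.85, SE 0.46, adjusted p = 0.0286), while *Eno2*, named after its values had been seen, had 935, 379 and 575 against 1418, 3104 and 2460 (1.86, SE 0.41, adjusted p = 0.0446). For *Hk2*, *Pfkl*, *Eno1* and *Eno3*, all Ep400 ko clones lay below wildtype. Of 17 hypoxia targets outside glycolysis, the carbonic anhydrase gene *Car12* was a lower DEG (−2.67, SE 0.52, adjusted p = 0.0343).

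Amino acid transporters had 1 higher and 2 lower DEGs of 22 and a median of −0.02 (0.13 without Kat5/3). The glutamine transporter gene *Slc38a1* had 1541, 4224 and 9603 against 222, 28.2 and 34.7 (−5.75, SE 1.06, adjusted p = 0.0317), and the related *Slc38a4* 1900.0, 3515 and 5290 against 62.7, 176 and 343 (−4.22, SE 0.67, adjusted p = 0.0269). The lysosomal transporter gene *Slc36a1* was higher with 524, 806 and 557 against 1690.3, 1878 and 1968 (1.53, SE 0.23, adjusted p = 0.0263). *Bcat1*, encoding the cytosolic transaminase of branched-chain amino acids, had 2464, 6140 and 7039 against 658, 82.3 and 61.8 and was the only DEG of 29 serine, one-carbon and nonessential amino acid enzymes (−4.29, SE 0.98, adjusted p = 0.0468). In all 4 genes, the Ep400 ko clones lay together on one side of the wildtype range, whereas the Kat5 ko clones did not. For *Bcat1*, with 4081 to 4869 in wildtype cells, Kat5/1 was below and Kat5/2 and Kat5/3 were above that range. The 18 ATF4 targets and stress regulators were low in both knockouts against wildtype, with medians of −1.19 in Kat5 ko and −0.68 in Ep400 ko, and differed by a median of 0.23 between them. The sign of this difference depended on single clones, with −0.13 without Ep400/2 and 0.50 without Ep400/3. *Cebpb* (1.46, adjusted p = 0.0295) and *Atf5* (1.41, adjusted p = 0.0434) were DEGs, as was *Vldlr*. *Atf5*, encoding a stress transcription factor, had 1444, 909 and 898 in the Kat5 ko clones against 2341 to 4745 in wildtype cells and 3996, 2432 and 2339 in the Ep400 ko clones.

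Of 25 cholesterol synthesis genes, 24 had a log2-fold change above 0 and 16 did not overlap in this direction (beside 20.5% of all genes), although the 2 DEGs were *Insig1* and *Tm7sf2*. The median was 1.30, and against wildtype it was −0.97 in Kat5 ko and 0.37 in Ep400 ko. The 3 Kat5 ko clones were alike, with medians of −0.745, −0.749 and −0.998 against the wildtype mean, but Ep400/1, Ep400/2 and Ep400/3 had −0.38, 1.17 and 0.09. Without clone Ep400/2, the median difference between the knockouts was 0.56, and this was the lowest value with 1 clone left out. *Insig1*, whose product restrains sterol synthesis in the endoplasmic reticulum, had 2336, 1494 and 1159 against 4086, 20029 and 8994 (2.704, SE 0.58, adjusted p = 0.0413). *Tm7sf2*, encoding a sterol reductase, had 315, 174 and 140.2 against 512, 1288 and 1011, with 524 to 978 in wildtype cells (2.13, SE 0.46, adjusted p = 0.0423). The desaturase gene *Scd1* had 5062, 6069 and 4347 against 10287, 31166 and 25028 (2.08, SE 0.40, adjusted p = 0.0347) and *Acsl1* a log2-fold change of 1.34 (adjusted p = 0.0468). They were the 2 DEGs of 16 genes of fatty acid synthesis, whose median was 0.11 (−0.04 without Ep400/2). Against wildtype, the median of these 16 was −0.32 in Kat5 ko and −0.33 in Ep400 ko.

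Detoxifying and iron-handling genes differed with the following values. Of 29 glutathione S-transferases and NRF2 targets, 6 were higher and 1 lower DEGs, and 16 did not overlap in the higher direction, beside 20.5% of all genes, with a median of 0.81. *Gsta4*, encoding a glutathione S-transferase, had 1149, 1158 and 1050.0 against 2452, 3562 and 3278, with 2819 to 3251 in wildtype cells (1.45, SE 0.21, adjusted p = 0.0233). *Gstm7* had 8.30, 8.68 and 10.8 against 59.1, 432 and 377, with 111 to 232 in wildtype cells (4.92, SE 0.81, adjusted p = 0.0293). Both were low in all Kat5 ko clones. *Nfe2l2*, which encodes NRF2 itself, had 7961, 5658 and 7011 against 14554, 16046 and 12226 and was above wildtype in all Ep400 ko clones (1.03, SE 0.22, adjusted p = 0.0414), whereas *G6pdx*, encoding the entry enzyme of the pentose phosphate pathway, was lower (−1.03, adjusted p = 0.0393). Of 15 iron genes, 3 were DEGs. *Tfrc*, encoding the transferrin receptor for iron uptake, had 8224, 11919 and 11153 normalized counts in the Kat5 ko clones, 2226 to 3396 in wildtype cells and 2405, 2274 and 888 in the Ep400 ko clones (−2.51, SE 0.40, adjusted p = 0.0266). *Fth1*, encoding the heavy chain of the storage protein ferritin, had 46213, 33553 and 31838 against 139103, 116084 and 103989, with 39466 to 52747 in wildtype cells (1.66, SE 0.27, adjusted p = 0.0281). The ferroxidase gene *Heph* had 12.4, 2.48 and 2.49 against 277, 45.9 and 146 (4.70, SE 0.97, adjusted p = 0.0389). Of these 3 DEGs, the gene for uptake of transferrin was thus high in Kat5 ko clones and the genes for storage and export in Ep400 ko clones. However, *Scara5*, named above for uptake of ferritin, was high in Ep400 ko clones. The median of the 15 genes was 0.18, and −0.31 without Kat5/2. Of 24 aldehyde dehydrogenase and aldo-keto reductase genes, *Aldh3a1* was the only DEG.

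Among chromatin genes, *Smarca2*, encoding the Brm ATPase of SWI/SNF, was higher in Ep400 ko clones with 1363, 986 and 953 against 3567, 4687 and 6181 (2.10, SE 0.27, adjusted p = 0.0206). Of the 32 remodeler genes, it was the 1 higher DEG. *Baz1a*, encoding a subunit of ISWI remodelers, had 2256, 6686 and 6999 against 1179, 1318 and 536 (−2.41, SE 0.50, adjusted p = 0.04), and the SWI/SNF subunit genes *Smarcc1* and *Bcl7a* had −1.02 (adjusted p = 0.0401) and −1.04 (adjusted p = 0.0421). Of 14 acetyltransferase genes, *Naa10*, encoding an N-terminal acetyltransferase of proteins, was a lower DEG (1405, 1876 and 1554 against 510.2, 617 and 427, adjusted p = 0.0233) besides *Kat5* as a higher DEG. *Tdg*, a DNA glycosylase gene of active demethylation, was lower (−1.58, adjusted p = 0.0338) and the Polycomb gene *Ring1* higher (1.23, adjusted p = 0.0482).

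Markers of other cell types gave low or uneven values. None of the genes for pluripotent cells or skeletal muscle passed the filter on low counts, and *Pou5f1*, *Zfp42*, *Esrrb* and *Myod1* were at 0 in all 6 clones, as were the melanocyte genes *Dct* and *Tyr*, the glial gene *Foxd3*, the neuronal gene *Rbfox3* and the osteoblast gene *Ibsp*. The summed normalized count of 6 neuronal markers was 66.3 to 380 in the Kat5 ko and 235 to 965 in the Ep400 ko clones, with 114 to 214 in wildtype cells. *Stmn2*, a neuronal microtubule regulator gene, passed the p-value threshold (1.04, 4.96 and 4.15 against 102, 132 and 40.3, adjusted p = 0.0286) but not the limit on the mean. The 4 smooth muscle markers summed to 17.4 to 25772 in the Kat5 ko, 88.2 to 2215 in the Ep400 ko and 220 to 625 in wildtype libraries. *Acta2* and *Tagln* reached 18992 and 6775 in Kat5/1 and were 17.4 and 0 in Kat5/2, so that they differed widely between clones of the same knockout. Between the knockouts, their log2-fold changes of −2.33 and −5.37 did not pass by edgeR's test (adjusted p = 0.418 and 0.173). With this spread, the test cannot show that the knockouts were alike. The 3 chondrocyte markers summed to 140 to 2116 in the Kat5 ko and 3.53 to 15.0 in the Ep400 ko clones, nearly all of it from *Acan*, while *Col2a1* had at most 13.5. The 4 melanocyte markers summed to 119 to 178 in the Kat5 ko, 354 to 700 in the Ep400 ko and 300 to 621 in wildtype libraries, nearly all of it from *Mitf* (adjusted p = 0.0512). Sums ran from 15.8 to 31.1 and 21.2 to 36.5 in Kat5 ko and Ep400 ko clones for 6 epithelial markers, from 7.44 to 27.0 and 8.23 to 17.8 for 4 endothelial markers, from 37.2 to 81.9 and 69.7 to 266 for 5 glial markers, from 623 to 764 and 248 to 890 for 5 blood markers, from 2187 to 3708 and 2492 to 4647 for 4 osteoblast markers and from 88.2 to 210 and 116 to 181 for 3 adipocyte markers. The part of these cells in the differences above was not tested. In bulk RNA, a change in the number of cells of a type and a change in the RNA per cell cannot be told apart.

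A single clone decided the high value of interferon genes. Of 35 genes for interferon response and RNA sensing, 30 had a log2-fold change above 0 and the median was 1.76, but relative to wildtype the median was −0.37, −1.84 and −0.35 in the Kat5 ko clones and −0.38, −0.03 and 2.36 in the Ep400 ko clones. Without Ep400/3, the median fell to 0.38. The only DEG was *Dhx58*, encoding an RNA sensor, with 93.3, 102 and 73.8 against 266, 735 and 860 (2.77, SE 0.49, adjusted p = 0.0313). All 10 tested respiratory chain genes of the mitochondrial genome had a log2-fold change above 0 and a median of 0.75, with *mt-Nd4* as the only DEG (19155, 26928 and 19882 against 47821, 40116 and 76386, adjusted p = 0.0482). The 78 nuclear genes of the respiratory chain had 0 DEGs by edgeR's test and a median of 0.01 (−0.04 without Kat5/2), with a smallest adjusted p of 0.0522 for *Atp5g1*.

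The knockouts also differed in the median over the genes of some chromosomes. The median of the 478 tested genes of chromosome 19, on which *Kat5* and *Vldlr* lie, was −0.09, −0.19 and −0.31 on the log2 scale against wildtype in the Kat5 ko clones and 0.30, 0.27 and 0.24 in the Ep400 ko clones, a difference of 0.46 between the means of the clones (plot of chromosome medians). On this chromosome, 44 genes were higher and 1 gene was a lower DEG, among them *Fth1*, *Scd1*, *Tm7sf2*, *Klf9*, *Smarca2* and *Rab3il1*. The next largest difference was that of chromosome 11 with −0.24, where all Ep400 ko clones lay between −0.21 and −0.17. The Kat5 ko clones had −0.11, 0.12 and 0.15 there. On the X chromosome, 10 DEGs were higher and 30 lower. Without the genes of chromosome 19, 703 DEGs remained, 381 higher and 322 lower. With the median shift of each chromosome removed from each library, 726 DEGs were obtained, 608 of which were among the 748. *Kat5* itself then had a log2-fold change of 1.29 (adjusted p = 0.0318). *Fth1* (1.22, adjusted p = 0.037), *Klf9* (2.01, adjusted p = 0.0358), *Smarca2* (1.67, adjusted p = 0.029) and *Rab3il1* (6.01, adjusted p = 0.0318) passed as well, but *Scd1* (1.64, adjusted p = 0.0522) and *Tm7sf2* (1.72, adjusted p = 0.0543) did not. Whether the number of chromosome copies differed between clones was not tested.

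**Figure D5:**
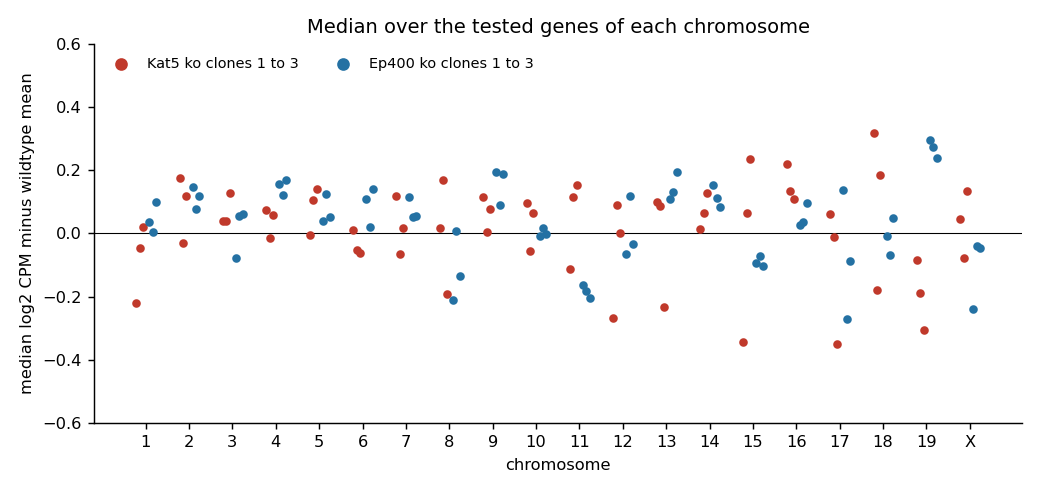
Median over the tested genes of each chromosome (x axis) of log2 CPM minus the wildtype mean (y axis), with 1 point per clone. On chromosome 19 the Kat5 ko clones (red) lie between −0.31 and −0.09 and the Ep400 ko clones (blue) between 0.24 and 0.30.

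Several named genes overlap another gene on the opposite strand in the annotation, and the strand setting of the counting is not given in the sources used here, so that their values are less certain. Among these are *Kat5* (*Rnaseh2c*), *Ryr3* (*Aven*), *Glt1d1* (*Slc15a4*), *Glipr1* (*Krr1*), *Rrp1b* (*Hsf2bp*), *Tead2* (*Cd37*), *Nid2* (*Rtraf*), *Chrd* (*Thpo*), *Cebpb* (*Tmem189*), *Kif18a* (*Mettl15*), *Smarcc1* (*Dhx30*), *G6pdx* (*Ikbkg*), *Tdg* (*Glt8d2*) and *Heph* (*Hsf3*). The same holds for *Atf5* (*Il4i1* and *Nup62*), *Eif3j1* (*Spg11*) and *Ino80e* (*Doc2a* and *Hirip3*).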

How the data were processed

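Polyadenylated RNA of 3 Kat5 ko, 3 Ep400 ko and 4 wildtype libraries of O9-1 cells was used. The authors deposited raw counts per gene, which per the submitters' processing notes and the study's methods derive from bcl2fastq 2.20 and STAR 2.7.3 on mm10 (GRCm38), with DESeq2 1.36.0 in R 4.2.1. The counting program and its strand setting are not given in the sources used here. The normalized tables were not used. Of 43346 gene IDs, 42462 were found in GENCODE M21 for coordinates.

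Genes were filtered (filterByExpr), scaled (TMM) and tested between the 6 knockout libraries with edgeR 4.0.16 (quasi-likelihood test, Benjamini-Hochberg adjustment) in R 4.3.3. Alternatives used limma 3.58.1 and DESeq2 1.42.0. The procedure was tested on simulated data, where 6, 32, 46 and 47 of 50 genes changed by 1, 2, 3 and 4 on the log2 scale were recovered among 13385 genes. Recovery was counted by adjusted p alone, without the limits on fold change and mean. In the same data 5 unchanged genes were called, and 1 of 13402 genes in data simulated with no change. Named are both targeted genes, the 12 DEGs with the largest change in each direction without overlap between groups and without predicted genes, the 6 largest on opposite sides of wildtype, and up to 4 called members per list by adjusted p (else the 2 members with the smallest). The 95% intervals and floors cover counting error only. The comparison, its lists and tests were chosen with earlier results of these data known.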

Additional observations from a re-analysis of the deposited data

Results flagged for a closer look

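Of 155 named genes, 21 had a wildtype library far from the other 3 (Dixon's test), 17 in wildtype library 3 and 4 in library 2. Chance gives such a value in about 1 of 20 groups. Library 3 was the high one for *Bcat1* (4869), *Cdkn1c* (645), *Cldn6* (449), *Espl1* (4351), *Etv1* (3815), *Fat1* (17748), *Glipr1* (1381), *Gstm7* (232), *Itga1* (91.3), *Itgb3* (455), *Lin28b* (162), *Mgp* (12908), *Msx1* (1843), *Nid2* (3376), *Slc38a1* (5322) and *Slc38a4* (7006 normalized counts) and the low one for *Timp2* (17956). Library 2 was high for *Glt1d1* (122) and low for *Mitf* (289), *Pdgfrb* (2743) and *Slc36a1* (397). These libraries do not enter the fit between the knockouts, but they set the wildtype range of these genes.

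In 6 DEGs the Ep400 ko and Kat5 ko clones lay on opposite sides of wildtype with the largest log2-fold changes, namely *Ntng2* (10.13), *Hs3st6* (10.08), *Frzb* (9.23), *Cped1* (8.99), *Wisp2* (8.14) and *Rab3il1* (6.45). The difference between the 2 departures from wildtype was not tested beyond the comparison of the knockouts themselves, and the fitted values of genes at or near 0 in the Kat5 ko clones depend on the prior count.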

How the results depend on the processing

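Against 748 DEGs (425 higher, 323 lower), DESeq2 gave 1871 (1114 and 757), no filter on low counts 1349 (758 and 591), an unadjusted p 1989 (1183 and 806) and all 10 libraries in one fit 1775 (1049 and 726). Library size alone left 196 lower DEGs. With 1 clone left out, 4 to 1750 DEGs were obtained, 3 to 920 higher and 1 to 830 lower, and with 1 wildtype library left out, 165 to 246 DEGs lay on opposite sides of wildtype. The latter alternative and the count without chromosome 19 were chosen after seeing the data. With the replicate number as a block, 200 DEGs were obtained (162 and 38). The numbers were not taken to pair the clones, since same-numbered clones had residual correlations of −0.0792, 0.232 and 0.0759 and not every clone correlated best with its own number. No DEG changed direction under these settings, but the DEGs were chosen from the same libraries and had ranges without overlap. Among named genes that were no DEGs, the log2-fold change turned for *Cd68* (−0.017 with limma-voom), *Acta2* (0.023 with limma-voom, 0.200 with the block) and *Pparg* (−0.018 with chromosome offsets), and with 1 clone left out it ran from −0.038 to 1.043 for *Krt8*, −0.537 to 0.508 for *Cd68*, −2.917 to 1.737 for *Acta2*, −0.010 to 0.529 for *Runx2*, −1.891 to 0.367 for *Fabp4* and −0.083 to 0.439 for *Pparg*. The causes were not tested. The 155 named genes include some whose adjusted p was above 0.05 from the start and that had no call to lose. Under the block, 83 rose above 0.05. With 1 clone left out, 7 (without Kat5/1) to 127 (without Kat5/3) and 128 (without Ep400/3) did so. Among the 155, *Vldlr* alone stayed at or below 0.05 in all 6 fits with 1 clone left out.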
